A study of Drosophila melanogaster with 12 samples.

Results

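The 3′ ends described here are wide clusters, meaning that the interval over which reads ended spanned 20 bases or more. They were chosen by their width alone from a table of 3′-end clusters: 269 of the 29030 distinct clusters that named 1 gene and lay off the ribosomal DNA scaffold reached it, or 0.927%, in 256 of 8949 genes. The full table had 32302 rows, of which 342 spanned 20 bases or more. Of those, 43 lay on ribosomal DNA and 30 others named several genes. The comparison clusters were 17053 that spanned 1 base and 11708 that spanned 2 to 19 bases.

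The clusters came from a Pumilio (Pum) xRIP-3′-seq experiment on adult *Drosophila* heads, in which RNA cross-linked by UV light to the RNA-binding protein Pum was recovered with an anti-Flag antibody and sequenced at its 3′ end. The 12 libraries formed 4 groups of 3. The pum input and pum IP libraries were from flies whose own *pumilio* gene carries a Flag-HA tag at its C terminus, and the w118 input and w118 IP libraries were from w1118 flies without the tag. All were made from head powder of flies kept at one temperature on the same food, so every cell type of the head contributed RNA. The study used males and females, and the age was not given in the sources used here. The 12 count columns carried no library name, so counts were used only as their sum over all columns, and no value could be assigned to a genotype, to IP or to input. Deeper libraries weigh more in such a sum, and replicate spread could not be computed.

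Nearly all mRNAs acquire their 3′ end by cleavage of the nascent transcript followed by addition of a poly(A) tail. The cleavage and polyadenylation specificity factor recognises a hexamer, most often AATAAA in DNA letters, and its endonuclease subunit cuts a short distance downstream, while the cleavage stimulation factor binds U-rich or GU-rich sequence beyond the cut. The cut does not always fall on one base, and mRNAs from a single site can end at several neighbouring positions.

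For several of the most abundant and widest clusters, the bases before the annotated transcript end inside the cluster are printed below. They run 5′ to 3′ on the strand of the gene and come from the RefSeq genome of the Release 6 assembly, which corresponds to dm6. Capitals mark any of the 12 poly(A) signal hexamers searched. Each sequence ends next to the annotated end, and the cluster itself began within or shortly before the printed stretch. A hexamer further upstream is not shown whole. In *ninaE* an AATAAA began 12 bases before the 5′ edge of the cluster, ahead of the printed stretch, and the marked TATAAA lay inside the cluster.
lncRNA:CR34335, chrX:3545863-3545892, minus strand: gaggaactcaaacaaaacaagCATAAAatc
Arr2, chr3L:8647262-8647291, minus strand: atatTATAAAtgtgttatggctatcaaaag
RpL8, chr3L:2588853-2588882, plus strand: acacggcagAATAAAacgtatttgtaaaac
Arr1, chr2L:18080385-18080414, plus strand: acaATTAAAtatgaacagagtttatgtatg
RpS14a, chrX:7934647-7934676, plus strand: tgcactgtAATAAAccaggaaaatacgatg
RpLP1, chr2L:420667-420696, plus strand: caaatgtgaggaAATATAgaagacgtttgc
ninaE, chr3R:19886256-19886285, minus strand: aaatgcaaacgaactagaaaagtTATAAAt
RpS9, chr3L:9509891-9509920, minus strand: tgctttacacaAATAAAtgtaaaAATACAc

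For contrast, the stretch directly before a pair of abundant single-base clusters is given in the same way. They lay at annotated ends of *gw*, which encodes the microRNA silencing factor GW182, and *Herc4*, which encodes a HECT-domain ubiquitin ligase.
gw, chr4:649980-650009, minus strand: TATAAAaaaacatccaacatacatatgtat
Herc4, chr3L:1318296-1318325, plus strand: gtaacttttaccAATAAAgttatataatat

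Wide clusters held much of the signal. Although they made up 0.927% of clusters, their summed count was 38248377, or 41.5% of the 92112443 reads in selected clusters. Single-base clusters, which were the majority by number, held 3.97%, and clusters of 2 to 19 bases held 54.5%. The wide share rested in part on a single locus: lncRNA:CR34335, a long noncoding RNA, held 12399169 reads, 13.5% of the total, and without it the wide clusters held 32.4%. The median summed count was 33430 for wide clusters (interquartile range 10726 to 106184), 130 for single-base clusters and 1246.5 for clusters of 2 to 19 bases. Of the 100 clusters with most reads, 56 were wide.

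Width and summed count rose together, and since the rule uses width, this relation is a description only. No cluster with fewer than 1024 reads was wide. The wide share was 0.883% of clusters with 2048 to 4095 reads, 13.1% of those with 16384 to 32767, 47.5% of those with 131072 to 262143 and 62.1% of those with 262144 to 524287. The median width rose over the same classes from 6 to 13, then to 19 and 22 bases. The lowest count of a wide cluster was 1952, and only 59 of the 17053 single-base clusters reached it. The table gives the outer limits of each cluster and no reads per base, so width is the distance between the outermost positions. How evenly cleavage was scattered within those limits was not tested.

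**Figure D1:**
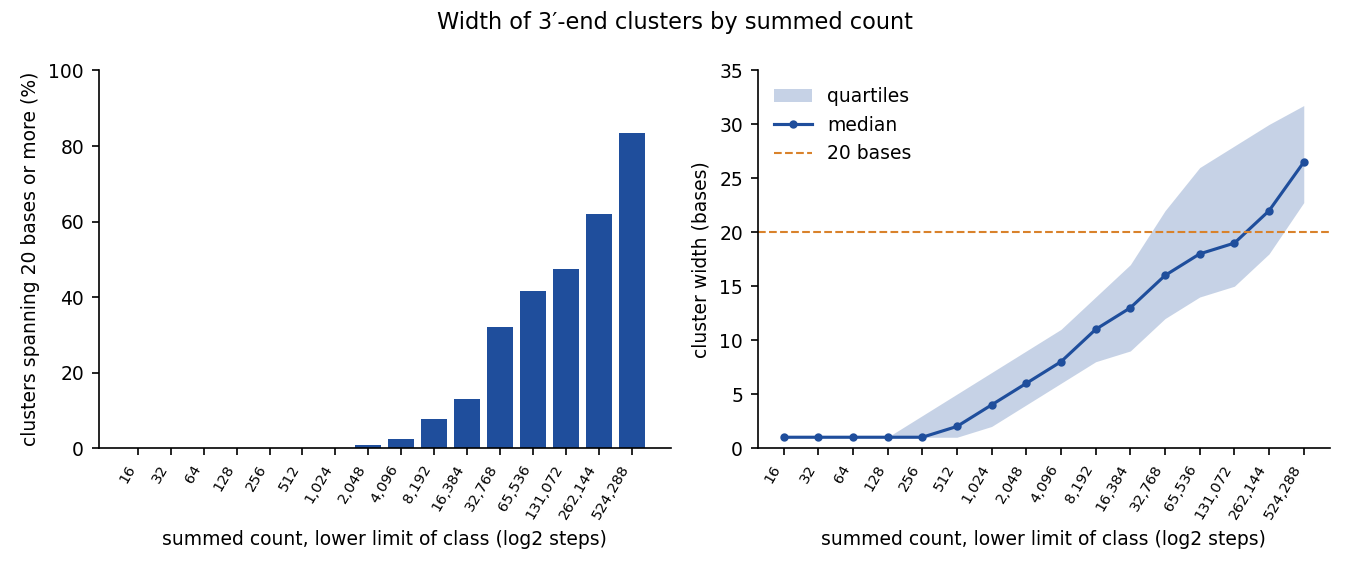
Percentage of clusters spanning 20 bases or more (left, bars) and cluster width in bases (right, median as points, quartiles as band) against classes of summed count, each class covering a doubling and classes under 5 clusters left out. The wide share rose from 0.883% at 2048 to 4095 reads to 83.3% in the class from 524288 reads, and the median width rose from 6 to 26.5 bases.

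Most wide clusters were only slightly wider than the limit. The median width was 24 bases, with an interquartile range of 22 to 29 and a maximum of 63. Just inside the limit, 34 clusters spanned 20 bases, with a median count of 14039.5, and 85.3% of them lay at annotated ends. Just outside it, 59 clusters spanned 19 bases, with a median count of 17185 and 91.5% at annotated ends. The limit therefore divided a continuous range of widths. In the clustering of the study, peaks were extended by up to 15 bases and intersecting clusters were merged. An extension of that length on both sides of 1 base would give 31 bases, and 47 clusters were wider. But 17053 clusters spanned 1 base, and neighbouring clusters of a gene lay as little as 5 bases apart. How peaks were joined in this table is thus unclear, and the 47 cannot be read as merged peaks.

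The 10 wide clusters with most reads belonged mainly to photoreceptor and ribosomal protein genes, led by a noncoding RNA. The cluster of lncRNA:CR34335 (chrX:3545849-3545911) was also the widest, at 63 bases. The next, at chr3L:13357198-13357238 on the plus strand, spanned 41 bases and held 1609131 reads under the identifier FBgn0040813. The annotation used here did not list this identifier, and the cluster overlapped the last bases of *Nplp2*, a neuropeptide-like precursor gene, on the same strand. *Arr2* (1448901 reads, 42 bases) and *Arr1* (765102 reads, 34 bases) encode the arrestins that switch off light-activated rhodopsin, and *ninaE* (431538 reads, 26 bases) encodes the major rhodopsin itself. The remaining members were all ribosomal protein genes. *RpL8* held 879043 reads over 22 bases, *RpL41* 740306 over 25 bases and *RpS14a* 691700 over 33 bases. The stalk protein genes *RpLP1* and *RpLP2* held 592462 reads over 28 bases and 507863 over 20 bases. The 3 clusters with most reads were also the widest of the 10, while *RpL8* was narrower than *RpS14a*, which had fewer reads.

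Apart from lncRNA:CR34335, the widest clusters were those of *eEF2*, *RpS18*, *BaraA1* and *RpS9*. *eEF2*, the elongation factor that translocates the ribosome, had a cluster of 58 bases with 105403 reads, almost all of it downstream of the annotated end: 1 base lay before that end and 56 after it. *RpS18* spanned 55 bases with 242104 reads. *BaraA1*, a gene of the baramicin immune peptides, also spanned 55 bases, with 119783 reads. *RpS9* spanned 47 bases with 411134 reads, centred on the annotated end with 23 bases on each side. The extent of a cluster around its annotated end therefore differed widely even among the widest members.

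A wide cluster was usually the main 3′ end of its gene. It had the highest summed count of its gene in 235 of 269 cases (87.4%) and held a median of 93.4% of the reads of the gene, against 3.96% for single-base clusters and 43.1% for clusters of 2 to 19 bases. It held over 90% of the gene in 151 cases and under 50% in 47. At equal summed count the difference from clusters of 2 to 19 bases was small: 87.2% against 84.4% were first in their gene, a difference of 2.81 percentage points with a 95% interval from -2.04 to 7.65. Wide clusters were rarely alone, since 237 had another cluster of the same gene, which was under 15 bases away in 135. In the classes of equal count, 56.4% of wide clusters and 53.4% of clusters of 2 to 19 bases with a neighbour had one that close (difference 3.04 points, -4.25 to 10.3).

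Wide clusters lay at annotated transcript ends more often than single-base clusters. An end of the named gene in Ensembl release 115 was within 50 bases of 242 of 267 wide clusters with an annotated gene (90.6%, Wilson 95% interval 86.5 to 93.6), of 43.8% of single-base clusters and of 70.9% of clusters of 2 to 19 bases. None of the 269 was classed as coding sequence, against 10.5% of all single-base clusters. However, none of the 59 single-base clusters that reached the lowest wide count was classed so either. Annotated ends, 3′ UTRs and downstream positions were assigned before coding sequence. Among the rest, 15 lay elsewhere in a 3′ UTR, 8 in exons of noncoding genes or pseudogenes, 1 downstream of its gene and 1 in a 5′ UTR, and 2 named genes that the annotation did not list.

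Because the 2 groups differ so much in depth, shares were next compared within classes of equal summed count. Only 2 classes held 10 or more clusters of both kinds. At 2048 to 4095 reads, 13 of 17 wide and 19 of 31 single-base clusters lay at annotated ends, and the Wilson intervals overlapped. At 4096 to 8191 reads the numbers were 25 of 29 and 3 of 12, and the intervals did not overlap. With single-base values weighted by the number of wide clusters in each class, the difference over 6 classes was 43.8 percentage points (95% interval 21.6 to 66.0, 166 wide and 258 single-base clusters). Most of the weight in this value fell on classes with 1 or 2 single-base clusters. Against clusters of 2 to 19 bases the difference over 10 classes was 5.04 points (0.522 to 9.55). A wider interval reaches an annotated end more easily, since distance was taken from its nearest edge. All intervals cover counting error only, and clusters of the same gene are not independent.

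The single-base clusters that reached the counts of wide clusters were a mixed set. The highest, with 117323 reads, lay in an exon of lncRNA:noe, a noncoding RNA that also carried wide clusters. *gw* followed with 16603 reads, 8 bases from an annotated end, and *Herc4* with 8854 reads, 4 bases from one. *drn* had 7289 reads at a position 1128 bases from its nearest annotated end.

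The annotated end itself lay inside 222 of 267 wide clusters (83.1%), against 26.3% of all clusters and, at equal summed count, 74.6% of clusters of 2 to 19 bases, and a wider interval holds an end more easily. Wide clusters had a median of 14 bases before it and 9 after it, with a broad range among single clusters. For lncRNA:CR34335 the cluster reached 49 bases upstream and 13 downstream of the end. *Arr2* and *Arr1* also extended mainly upstream, by 31 and 29 bases against 10 and 4 downstream. *RpS14a* was close to symmetric, with 15 bases before the end and 17 after it. A second annotated end within 10 bases of the cluster was uncommon: 11 of 267 wide clusters (4.12%) had 2 or more such ends, as did 0.178% of single-base clusters and 0.586% of those of 2 to 19 bases. At equal summed count the difference was 3.01 points from single-base clusters (-17.6 to 23.6) and 2.77 from clusters of 2 to 19 bases (-0.761 to 6.29), and neither interval excluded 0.

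**Figure D2:**
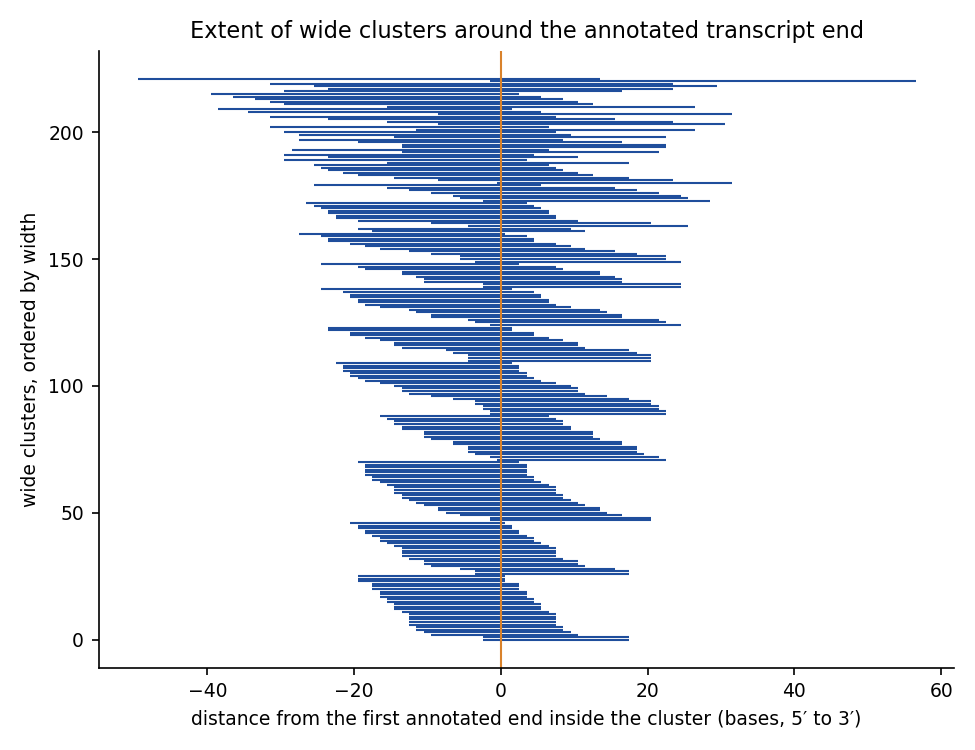
Extent of each of the 222 wide clusters that held an annotated transcript end (horizontal lines, ordered by width), in bases from the first such end inside the cluster at 0, 5′ to 3′. The median cluster reached 14 bases before the end and 9 after it, and the widest reached 49 bases before it.

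Poly(A) signals preceded most wide clusters. In the 40 bases before the 5′-most base, 232 of 269 (86.2%, 81.6 to 89.9) had at least 1 of the 12 hexamers, against 61.6% of single-base clusters, 78.7% of clusters of 2 to 19 bases and 68.7% of all clusters. The hexamers searched, on the strand of the gene only and counted also where they overlap, were AATAAA and then ATTAAA and AATATA and AAGAAA and AATACA and TATAAA and AATAGA and CATAAA and GATAAA and AGTAAA and ACTAAA and AATGAA. The canonical AATAAA stood before 164 wide clusters (61.0%, 55.0 to 66.6), 29.8% of single-base clusters and 48.1% of those of 2 to 19 bases. Where it was missing, ATTAAA was nearest in 15, AATACA in 13 and AATATA in 10. A match is a description of the letters and does not show that the hexamer was used.

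At equal summed count the canonical hexamer was more frequent before wide than before single-base clusters, while values for any hexamer varied with the clusters compared. At 4096 to 8191 reads, AATAAA preceded 23 of 29 wide and 2 of 12 single-base clusters, and at 2048 to 4095 reads it preceded 10 of 17 and 9 of 33. The standardised difference was 44.5 points (21.8 to 67.3), and 16.9 points (-11.1 to 44.8) among clusters at annotated ends alone. Most of the weight in the 44.5 points, and in the value for any hexamer, fell on classes with 1 or 2 single-base clusters. For any hexamer the standardised difference was 13.2 points, with an interval from -9.25 to 35.6. It turned to -4.35 points among clusters at annotated ends and to -11.2 with wide clusters taken from 30 bases. In the 2 classes with 10 or more of both kinds it was 30.02 points (10.00 to 50.04). Against clusters of 2 to 19 bases the differences were 2.94 points for AATAAA (-3.74 to 9.61) and 2.12 points for any hexamer (-2.72 to 6.95), and intervals of that width leave room for small differences in either direction.

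**Figure D3:**
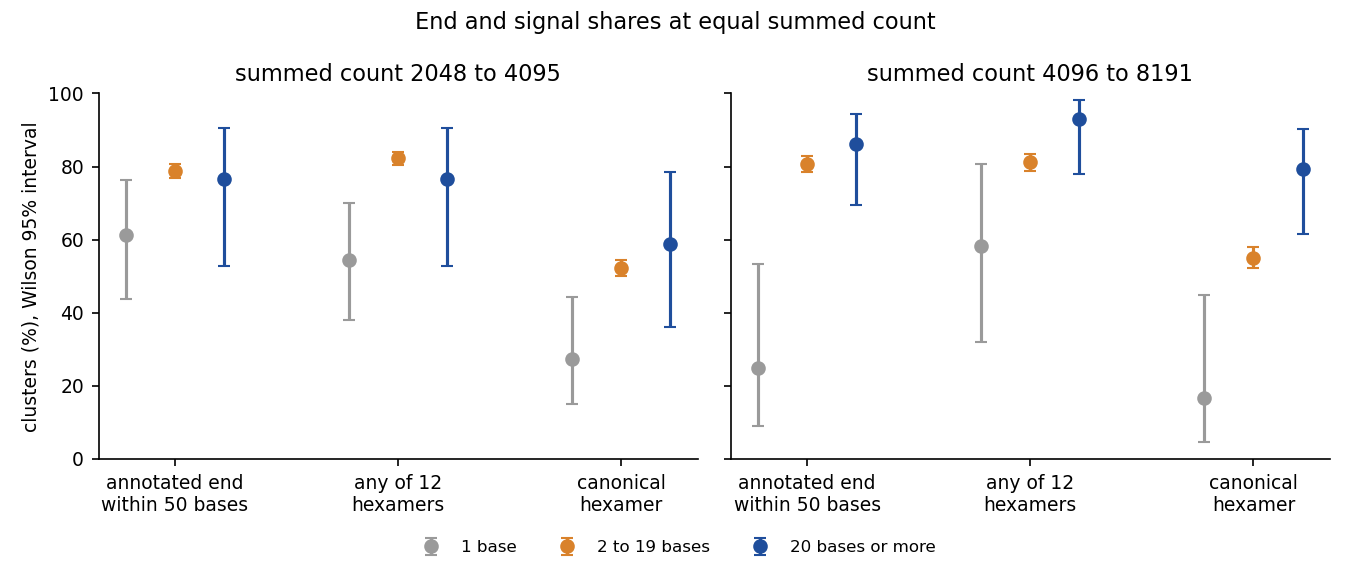
Percentage of clusters with an annotated end within 50 bases, any of 12 hexamers, or the canonical hexamer in the 40 bases upstream, for widths of 1 base, 2 to 19 bases and 20 bases or more, in the classes of 2048 to 4095 and 4096 to 8191 summed reads (points, bars are Wilson 95% intervals). In the higher class the canonical hexamer preceded 23 of 29 wide and 2 of 12 single-base clusters.

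Several of the most abundant wide clusters had no hexamer wholly upstream, and the sequences above show where it lay. Of the 37 wide clusters without one, 8 had a hexamer across the 5′ edge and 17 more had one inside the cluster. *RpL8* belonged to the first kind: its AATAAA began 21 bases before the annotated end, at the edge of the cluster. *Arr2*, *Arr1*, *RpLP1* and lncRNA:CR34335 had none before the cluster either, but each had 1 in the 30 bases before the annotated end. Across all wide clusters, 120 (44.6%) held a hexamer within their limits, against 556 of 11708 clusters of 2 to 19 bases (4.75%). A longer interval holds a hexamer more easily, and a single base cannot hold one, so these shares are a description. The remaining 12 had none before, across or inside. Of those, only 6 lay in protein-coding genes, and the others lay in long noncoding RNAs or pseudogenes of ribosomal RNA. The protein-coding ones included *RpL40*, which encodes a ubiquitin fused to a ribosomal protein (133428 reads). *Tpi*, the glycolytic enzyme triose phosphate isomerase (37550 reads), and one cluster of *nSyb*, the neuronal synaptobrevin (19722 reads), were also among them.

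Taking the annotated end as the reference point removes the effect of the cluster's own width on the window. Width still bears on which clusters enter, since only those holding an annotated end were used and a wider interval holds one more easily. On this measure 206 of 222 wide clusters (92.8%) had a hexamer in the 40 bases before the end, as did 89.2% of all clusters that held an end. At equal count the difference from clusters of 2 to 19 bases was 1.55 points (-3.24 to 6.33). AATAAA was present in 68.4% of wide clusters and 66.5% of clusters of 2 to 19 bases at equal count (difference 1.90 points, -5.29 to 9.08). The mean number of hexamers was 1.53 in wide clusters and 1.33 in the others, a difference of 0.19 (0.05 to 0.33). *RpS9* is an example of several hexamers, with AATAAA and a variant hexamer in its printed stretch. In the window before the 5′ edge, the number differed by 0.06 (-0.06 to 0.19).

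The limits of wide clusters were also measured from the signal, as a description, since the position of the edges is part of the width that chose the members. Measured from the first base of the signal, the 5′ edge lay at a median of 15.5 bases (interquartile range 12 to 18) and the 3′ edge at 40 bases (35 to 45). Clusters of 2 to 19 bases ran from 19 to 25 bases, and single-base clusters lay at 21. No comparison was drawn from these distances. An edge that moves upstream also changes which hexamer lies before it.

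The bases after the 3′ edge of wide clusters held fewer A, but the position of that edge is part of the width that chose the members. Where a signal was found, the edge lay at a median of 40 bases from it. In single-base clusters it lay at 21 bases and in clusters of 2 to 19 bases at 25. The windows therefore cover different stretches around the end, and the values for A and T below are descriptions. Among the 10 bases after the 3′-most base, A occurred 2.63 ± 1.93 times (SD, n = 269), against 5.03 ± 1.82 after single-base clusters (n = 17052) and 4.30 ± 2.47 after clusters of 2 to 19 bases (n = 11708). An oligo(dT) primer can anneal to A-rich stretches inside a transcript. The methods of the study state that positions followed by the strongest of these were masked unless an annotated end was near. Some remained: single-base clusters of *X11Lbeta* and *Ace*, 947 and 554 bases from an annotated end, were followed by 10 A. Leaving out clusters followed by such stretches took those compared at equal count from 167 to 158 wide and from 260 to 178 single-base. The difference was then -2.01 A (-3.16 to -0.857). The wide cluster with most reads, lncRNA:CR34335, was followed by 9 A and held an annotated end. At equal summed count the difference of wide from single-base clusters was -2.11 A (-3.89 to -0.32), and -1.56 with an interval that included 0 when only clusters at annotated ends were used. The difference from clusters of 2 to 19 bases was -0.28 (-0.60 to 0.04). T made up 38.2% of the 30 bases after wide clusters and 36.1% after clusters of 2 to 19 bases at equal count, a difference of 2.10 points (0.173 to 4.03). The part of internal priming in the single-base clusters was not tested.

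Cytoplasmic ribosomal protein genes were the largest group among the functional lists. Of the 74 with a cluster, 38 (51.4%) had a wide one, against 2.86% of all 8949 genes with a cluster, and they carried 40 wide clusters of 20 to 55 bases with 32798 to 879043 reads. These genes are among the most abundant in the table, with a median of 197362 reads per gene against 1636 over all genes. The share of wide clusters in each count class, applied to the ribosomal clusters, gives 38.3. Here and for the lists below, those shares were taken over all clusters, members of the list included. The observed 40 was close to that value, but ribosomal clusters helped to set the shares of the highest classes. Their closeness was thus partly built in, and no rate from other clusters alone was computed. Genes for mitochondrial ribosomal proteins had a median of 3620 reads, and 1 of 70, *mRpL28*, had a wide cluster (8580 reads, 31 bases), where the class shares give 1.09.

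Genes of oxidative phosphorylation came next, with wide clusters in 24 of 67 (35.8%) where the class shares give 18.9. *ND-AGGG*, a subunit of complex I, had 177761 reads over 27 bases. *ATPsynD* and *ATPsynF*, subunits of the ATP synthase, had 152188 over 28 bases and 141069 over 32 bases. None of the 98 clusters in 20 V-ATPase genes was wide, where the class shares give 1.66. The median of these genes was 12632 reads. In glycolysis, 3 of 12 genes had a wide cluster, where the class shares give 3.59: *PyK*, pyruvate kinase, *Gapdh2*, the dehydrogenase of glyceraldehyde phosphate, and *Tpi*. *PyK* and *Gapdh2* had nearly the same count, 64917 and 64906 reads, but spanned 24 and 40 bases.

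Phototransduction genes had wide clusters in 9 of 22 (40.9%), 10 clusters in all where the class shares give 9.33. They include the arrestin and rhodopsin genes above and *Galphaq*, the G protein that couples rhodopsin to phospholipase C, with 88555 reads over 26 bases. Genes of synaptic vesicle release were lower in count. Of 22, *unc-13*, which primes vesicles for fusion, and *nSyb*, the vesicle SNARE, had wide clusters, and their 4 clusters compare with 1.96 from the class shares. Translation factors had 4 in 43 genes, where the class shares give 4.89. *eEF1alpha1*, which delivers aminoacyl-tRNA, had 130265 reads over 25 bases and *eEF5* had 101116 over 25 bases. None of 13 cleavage and polyadenylation factor genes and none of 9 genes for neuronal RNA-binding regulators, *pum* among them, had a wide cluster, where the class shares give 0.312 and 0.429.

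**Figure D4:**
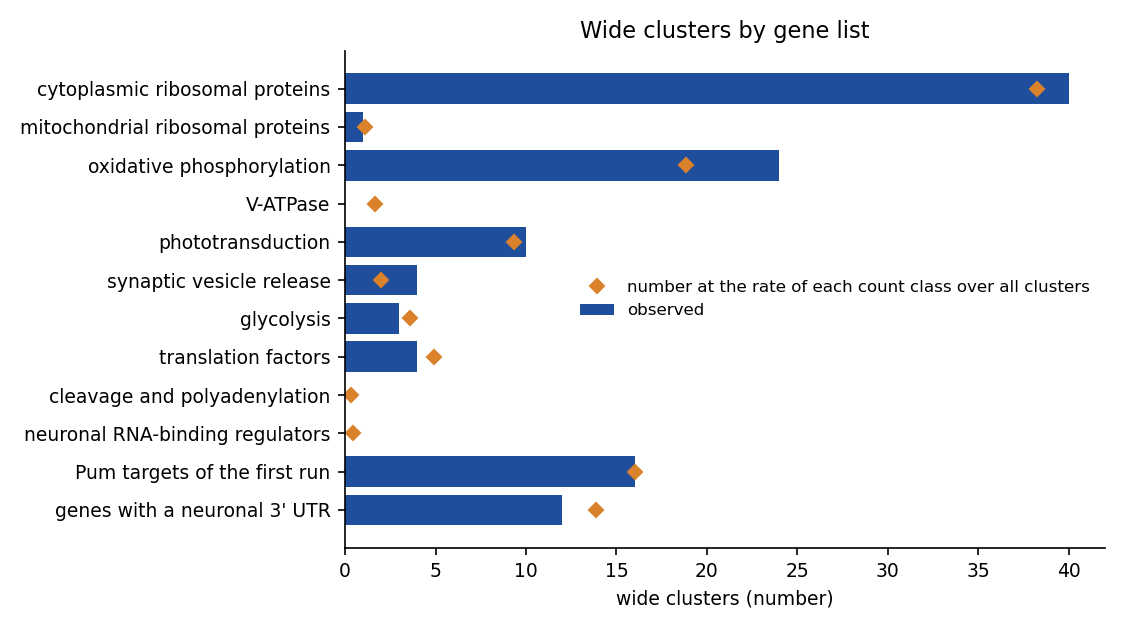
Number of wide clusters in each gene list (bars) and the number that the wide share of each count class over all clusters gives for the clusters of that list (diamonds). Cytoplasmic ribosomal protein genes had 40 with 38.3 from the class shares, oxidative phosphorylation genes 24 with 18.9, and V-ATPase genes 0 with 1.66.

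Genes bound by Pum in the first run of the study, a list drawn from other libraries, had wide clusters about as often as their depth gives. Of 456 with a cluster, 15 (3.29%) had a wide one, and their 16 wide clusters compare with 16.0 from the class shares. The highest were *Galphaq* and *PyK*, then FBgn0037636 with 28279 reads over 28 bases, an identifier the annotation did not list. Among genes with a neuron-specific extended 3′ UTR, 12 of 264 (4.55%) had a wide cluster, where the class shares give 13.9. They include *apolpp*, the precursor of the lipid carrier lipophorin (110096 reads, 25 bases). That cluster held 39.5% of the reads of its gene, which had 79 clusters.

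A few genes had more than 1 wide cluster. lncRNA:CR34335 and lncRNA:noe had 3 each, and 9 protein-coding genes had 2 each. In lncRNA:CR34335 the other clusters held 4079 and 2746 reads, far below the main one. In lncRNA:noe a pair of clusters was of similar size, with 427709 reads over 29 bases and 395607 over 44 bases, and both lay away from the annotated end, at 56 and 574 bases. *Arr2* had a second cluster of 47640 reads 159 bases from its annotated end. *sesB*, the mitochondrial adenine nucleotide translocase, had its larger cluster (287424 reads, 22 bases) 565 bases from an annotated end and its smaller one (117230 reads, 26 bases) on an annotated end.

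In the other genes with a pair, both clusters usually lay at annotated ends, that is within 50 bases of one. *porin*, the mitochondrial outer membrane channel, had 149108 reads over 40 bases and 10726 over 27 bases. *RpS15* had 357448 over 24 bases and 39217 over 27 bases. The clusters of *RpL4* were only 5 bases apart, the smallest gap between clusters of a gene, with 32798 reads over 30 bases and 70266 over 23 bases. The larger held an annotated end, and the smaller stopped 9 bases before that same end. *nSyb* had 19722 and 5669 reads at different annotated ends. In *unc-13* the larger cluster, with 20212 reads, lay on an annotated end and the smaller, with 7542, lay 372 bases from one.

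Some wide clusters were low in count among wide clusters, although all lay above the upper quartile of 995 reads over all clusters. After lncRNA:noe with 1952 reads, the lowest were *Gpb5*, a subunit of a glycoprotein hormone, with 1971 reads over 20 bases, *Pex16*, a peroxisome biogenesis gene, with 2219 over 20 bases, *CG4743* with 2377 over 21 bases, and *wts*, the Warts kinase of the Hippo pathway, with 2396 over 20 bases. Of these, *Gpb5*, *CG4743* and *wts* lay at annotated ends, and *Pex16* lay 150 bases from one. One low cluster was in a 5′ UTR, that of the zinc finger gene *jim* (3666 reads, 21 bases).

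Clusters of repeated or overlapping sequence are uncertain. A trio of wide clusters lay in pseudogenes of ribosomal RNA, 18SrRNA-Psi:CR41602 (238565 reads), 28SrRNA-Psi:CR45860 (58803) and 28SrRNA-Psi:CR40741 (54756). Their sequence resembles ribosomal DNA, so their reads cannot be placed with certainty. In 31 of 269 wide clusters, a cluster of another gene on the opposite strand shared at least 1 base. The share among other clusters was not computed, and a wider interval overlaps another more easily, so the 31 do not set wide clusters apart. *RpL23* (357174 reads), a ribosomal protein gene, overlapped the scaffold protein gene *inaD* (43215 reads) by 14 bases, and *BomS5* (234512 reads) overlapped *BomS6* (6162 reads) by 20 bases. The cluster of *IscU* (51507 reads) overlapped larger clusters of *CG8369* on the opposite strand, with 168560 and 137441 reads.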

How the data were processed

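The deposited table gave, for each 3′-end cluster, its position, strand, gene and 12 columns of raw read counts that carried no library name. According to the methods and the submitters' processing notes, the authors mapped the reads with STAR 2.6.1b to dm6, using Ensembl release 93, masked positions likely to arise from internal priming, joined peaks of at least 6 reads into clusters, and counted reads in each. Per the labels, the 12 libraries formed 4 groups of 3, but no column could be assigned, so the deposited counts were summed over the 12 columns and no depth per library was available. Starts were 0-based and are printed 1-based. Repeated positions, rows on ribosomal DNA and rows naming several genes were left out.

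Clusters were compared with Ensembl release 115 and the RefSeq Release 6 genome in Python 3.11.15 (numpy 2.4.6, pandas 2.3.3, scipy 1.17.1, matplotlib 3.10.9). Shares carry Wilson 95% intervals. Differences were standardised over classes of summed count in powers of 2, with weights from the wide clusters and a normal 95% interval, and the calculation was tested on simulated data. No p-value was computed, since clusters are not replicates. Genes named were the 10 wide clusters with most reads, the 5 widest, the 5 genes with most wide clusters and up to 3 per gene list. Others, such as low-count, single-base, strand-overlapping and repeated-sequence clusters, were chosen after their values were seen. The members and gene lists were chosen with earlier results of these data known. Comparisons with clusters of 2 to 19 bases, the measures taken from the annotated end, and classes with 10 or more of both kinds were added after the data had been seen. The alternatives tried were other width limits, comparison widths, count classes, windows and subsets, given in the closing section. The sequence at 1 of the clusters named by this rule is not reported here.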

Additional observations from a re-analysis of the deposited data

How the results depend on the processing

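No paired analysis was possible because the count columns carry no replicate number. Of 66 alternative values, 52 kept their direction and whether their interval excluded 0. In many of these, among them all those for several annotated ends, the interval included 0 in both settings. The median summed count carries no interval. Another 4 came to exclude 0 in the same direction, 7 no longer excluded 0 and 3 reversed. For any hexamer, the difference from single-base clusters (13.2 points) became -11.2 with wide clusters from 30 bases (23 clusters) and -4.35 with only clusters at annotated ends. It became 20.1 with wide clusters from 15 bases, 21.9 against widths of 2 to 5 bases and 30.02 in classes with 10 or more of both kinds, and these 3 intervals excluded 0. For AATAAA (44.5 points) the difference was 16.9 at annotated ends, and 2.94, or 3.33 in protein-coding genes, against widths of 2 to 19 bases. The number of hexamers (0.23) differed by -0.11 at annotated ends and 0.34 against widths of 2 to 5 bases. For A downstream (-2.11) the values that no longer excluded 0 were -2.45 from 30 bases, -1.56 at annotated ends, and -0.28, or -0.25 in protein-coding genes, against 2 to 19 bases. The share at annotated ends (43.8 points) excluded 0 in each alternative, but ranged from 72.8 with wide clusters from 30 bases to 22.1 against widths of 2 to 5 bases, and 5.04, or 4.35 in protein-coding genes, against 2 to 19 bases. The median summed count was 36671 at annotated ends. The causes were not tested. Few single-base clusters reach the depth of wide ones, so those comparisons are imprecise.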

Other observations

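Short secreted proteins of the immune and chemosensory systems also carried wide clusters. These families were chosen after their values had been seen. Of 12 Bomanin genes, which encode short peptides induced by infection, 7 had a wide cluster, where the wide share of each count class gives 4.29. *BomS5* had 234512 reads over 37 bases, *BomS2* 194081 over 42 bases and *BomS3* 152037 over 26 bases. Of 26 odorant-binding protein genes with a cluster, 3 had a wide one, where the class shares give 3.36. *Obp99c* had 240856 reads over 30 bases, *Obp56d* 108583 over 24 bases and *Obp56g* 56619 over 27 bases.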
